A study of Mus musculus with 18 samples.

Results

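The 39 genes described here are interferon-stimulated genes of the mouse, measured by bulk RNA sequencing in sciatic nerve and in dorsal root ganglia (DRG). They were taken by name from the authors' sheets, and all 39 were found among the 28684 genes counted. The nerve carries sensory and motor axons with their Schwann cells, and DRG L3-L5 hold the cell bodies of sensory neurons. Tissue of C57BL/6 mice came from 3 stages, namely no disease, peak disease (PID21) and recovery (PID42), with 3 libraries for each of 6 groups and 18 in all. The sources used here do not give the way disease was induced, the meaning of PID or the age of the mice, and no further treatment or allele is named for any group. By its title, the series is about the sensory neuron types harmed by loss of axon-glia contact. Whether the 3 libraries of a group stem from different mice is not stated, so p-values here speak of the spread among libraries alone.

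Interferons are cytokines that cells release on sensing viral or misplaced nucleic acid, or, in the case of interferon gamma, mostly on activation of T and NK cells. Type I interferons bind the receptor Ifnar1 and Ifnar2 and act through a complex that includes Stat2 and Irf9 on a DNA element called ISRE. Interferon gamma binds Ifngr1 and Ifngr2 and acts on an element called GAS. The members fall into 8 groups by role. These are 4 Ifit proteins that bind viral RNA, the ubiquitin-like modifier Isg15 with its protease Usp18, and 4 transcription factors. They go on with 4 genes of the oligoadenylate synthetase family listed with the RNA sensor Ifih1, 6 antiviral effectors, 7 guanylate-binding proteins (GBPs) and 7 immunity-related GTPases (IRGs), both families known for defence within cells, and 4 other genes.

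Total counts per library ran between 13686465 and 23435562, of which the members took between 0.0591% and 0.253%. Levels are given as CPM, the count scaled to a common library size after TMM normalisation. Sums of cell markers are in CPM scaled over all 18 libraries, and other levels in CPM scaled within a tissue unless stated. The tissues carried the markers of their labels. Summed levels of 6 neuron markers were 99.1 to 405 CPM in no disease nerve and 9576 to 11398 CPM in no disease DRG. Single libraries stood apart across most members. Of the 3 recovery nerve libraries, replicate 3 was the highest for 38 of 39 members, against 37.1% of all genes whose mean was at least that of the lowest member. In peak nerve, replicate 1 was the highest for 33 of 39 members, against 23.6% of genes, and in no disease nerve replicate 3 was the highest for 36, against 30.1% of genes. In DRG, peak replicate 2 was the highest for 33 members, against 38.8% of genes. Recovery replicate 1 was the lowest of its group for 37 members, against 45.2% of genes, and recovery replicate 3 the highest for 30, against 30.6% of genes. In no disease DRG, which every DRG comparison with no disease uses, replicate 1 was the highest for 30, against 34.4% of genes. The members' median coefficient of variation within a group was between 15.7% in no disease DRG and 42.5% in recovery nerve. In those groups it was 7.15% and 7.67% over the genes whose mean was at least that of the lowest member. These genes were not matched to the members by level.

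**Figure D1:**
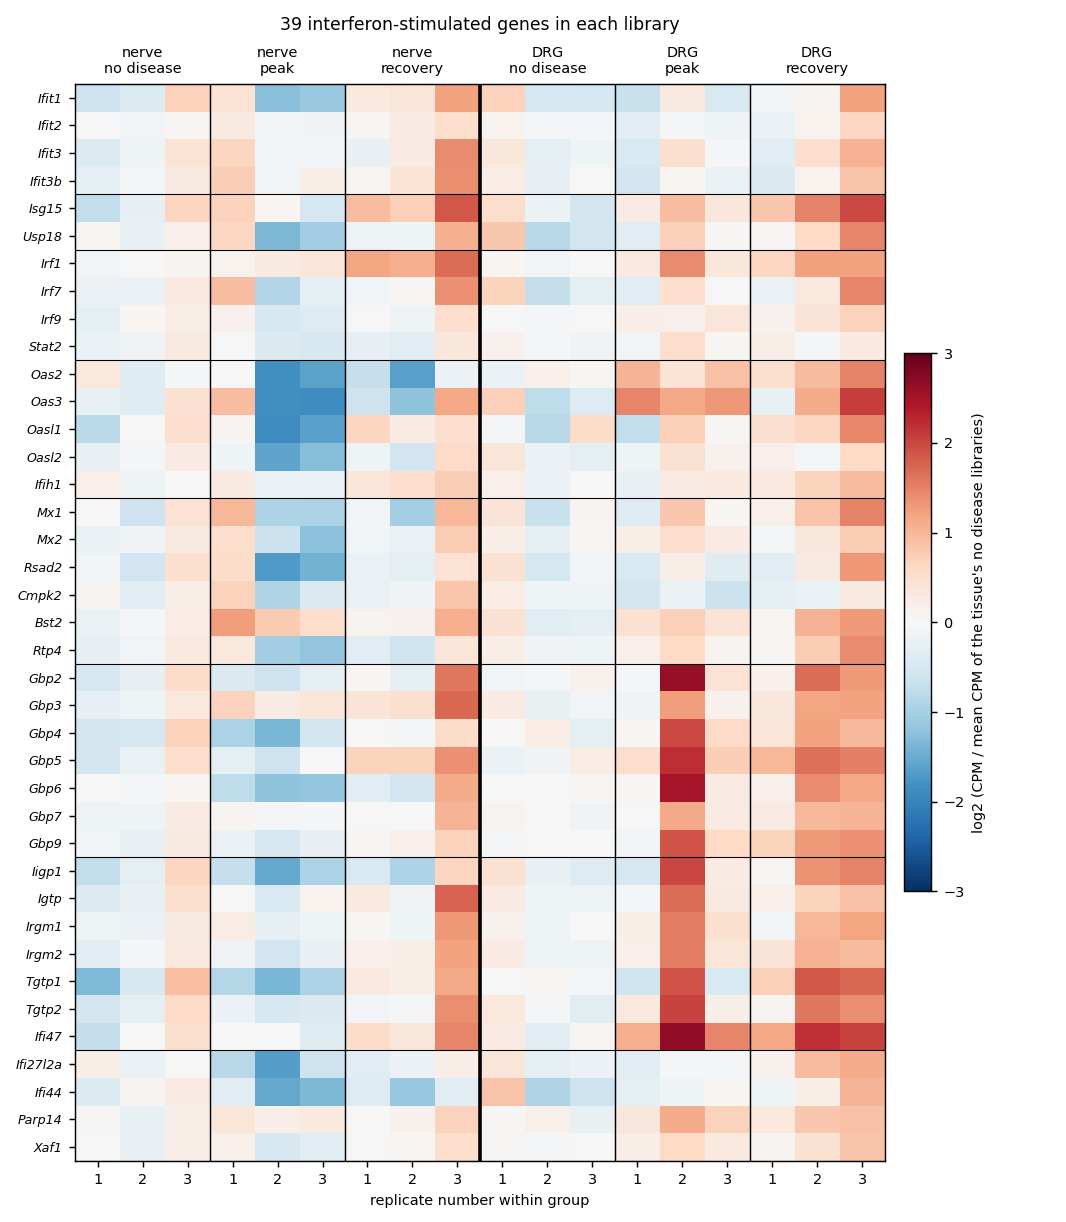
Level of each of the 39 members (rows, by role) in each of 18 libraries (columns), as log2 of its CPM over the mean CPM of the 3 no disease libraries of its tissue; black lines part the role groups and the stages. Recovery nerve replicate 3, DRG peak replicate 2 and recovery DRG replicates 2 and 3 are high across many rows, and peak nerve replicates 2 and 3 are low in the Oas, Mx and Rsad2 rows.

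The members lie on 14 chromosomes in GENCODE vM21 on GRCm38, several of them side by side. The 4 Ifit genes lie on chromosome 19 between 34550694 and 34650009, and Gbp2, Gbp3, Gbp5 and Gbp7 lie together on chromosome 3. RefSeq promoter windows on GRCm38.p6 were at hand for 28 of the 39 members. In the 250 bases before the annotated start, the ISRE core letters (GAAA, any 2 bases, then GAAA), searched on both strands like the GAS letters, stood in 17 of these 28 (60.7%), against 3.46% of 27025 genes. The GAS letters TTCNNNGAA stood in 9 of 28 (32.1%), against 8.13% of genes, and both stood in 7 members, against 0.459% of genes. All 4 GBPs with an entry and 5 of 6 IRGs held the ISRE core letters. The windows printed here belong to members that passed a test between stages, and they show both kinds of motif. Capitals mark the motif letters of either strand, and in Bst2 the GAS letters overlap an ISRE core.
Irf1, chr11:53769764-53770013, plus strand: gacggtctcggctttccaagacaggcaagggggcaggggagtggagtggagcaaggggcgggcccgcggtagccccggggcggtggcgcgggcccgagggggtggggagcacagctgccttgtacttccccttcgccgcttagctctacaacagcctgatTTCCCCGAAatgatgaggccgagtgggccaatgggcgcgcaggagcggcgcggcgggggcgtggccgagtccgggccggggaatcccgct
Isg15, chr4:156200819-156201068, minus strand: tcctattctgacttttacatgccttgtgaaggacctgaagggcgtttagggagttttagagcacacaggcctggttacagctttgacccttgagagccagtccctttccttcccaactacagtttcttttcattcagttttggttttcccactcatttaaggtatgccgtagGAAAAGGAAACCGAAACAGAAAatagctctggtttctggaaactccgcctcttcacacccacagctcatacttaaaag
Bst2, chr8:71537473-71537722, minus strand: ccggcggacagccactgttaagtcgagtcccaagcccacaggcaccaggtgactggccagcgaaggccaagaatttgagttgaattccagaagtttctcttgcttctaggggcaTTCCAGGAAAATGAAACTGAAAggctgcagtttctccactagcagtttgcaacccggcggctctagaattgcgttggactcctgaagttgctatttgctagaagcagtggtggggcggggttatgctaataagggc
Gbp5, chr3:142496684-142496933, plus strand: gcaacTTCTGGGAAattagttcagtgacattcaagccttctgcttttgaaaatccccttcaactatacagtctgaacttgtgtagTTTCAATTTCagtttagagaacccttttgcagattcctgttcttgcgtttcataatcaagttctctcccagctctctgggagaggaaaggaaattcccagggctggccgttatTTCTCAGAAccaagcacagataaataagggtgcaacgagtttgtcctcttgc
Tgtp1, chr11:48992247-48992496, minus strand: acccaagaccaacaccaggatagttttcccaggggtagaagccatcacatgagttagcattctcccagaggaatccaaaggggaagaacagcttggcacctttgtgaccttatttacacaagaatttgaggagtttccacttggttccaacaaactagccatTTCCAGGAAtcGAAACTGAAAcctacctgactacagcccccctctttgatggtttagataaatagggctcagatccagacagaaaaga
Irf1 held GAS letters alone, at position -90 from its start, and Isg15 held ISRE core letters alone, in an overlapping run. In Tgtp1 the GAS letters began at position -88 and the ISRE core letters at position -77. Ifih1 and Ifi47, which also passed a test between stages, held neither set of letters in their windows.

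**Figure D2:**
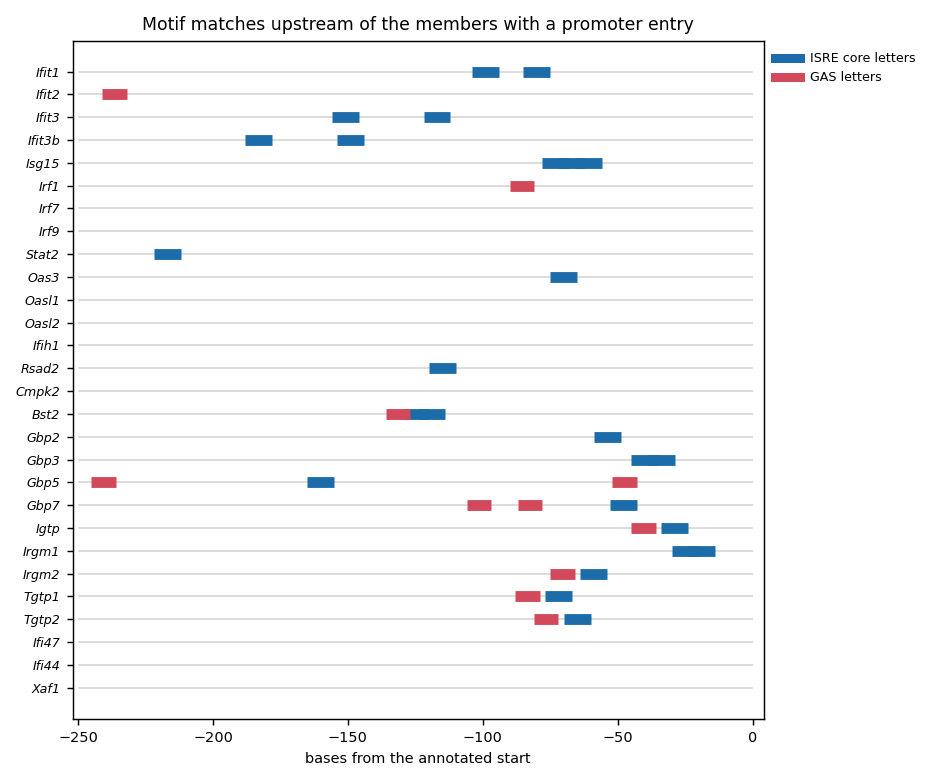
Positions of ISRE core letters (blue) and GAS letters (red) in the 250 bases before the annotated start of the 28 members with a promoter entry; the horizontal axis is bases from the start, and for a gene with several starts the window with most matches is drawn. Matches are seen in 17 members for ISRE core letters and 9 for GAS letters, and several GBPs and IRGs carry both close to the start.

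Transcripts of the interferons themselves were close to absent. Of 9 interferon genes found in the count sheet, none passed the filter on low counts, so none was tested. Ifng, which encodes interferon gamma, had 0 to 2 counts in every library. Ifnb1, which encodes interferon beta, had 4, 2 and 3 counts in recovery nerve, 1, 0 and 0 in peak nerve and 0 in each no disease nerve library. In DRG it had 2, 9 and 5 counts at recovery, 1, 0 and 0 at peak and 0 in each no disease library. Every recovery library of both tissues thus held at least 2 Ifnb1 counts and every no disease library none. Against a floor of 3 counts over the 3 no disease libraries, Ifnb1 stood 2.52-fold higher in recovery nerve and 4.75-fold higher in recovery DRG. The floor allows for counting error in the no disease libraries alone. Counting error of the 9 and 16 summed recovery counts, and spread among libraries, are not covered.

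At peak disease the sciatic nerve differed from no disease nerve in 2 members, which passed the test in opposite directions. Bst2, which tethers budding virus particles to the cell surface, was higher in peak nerve, and Ifi27l2a, a small interferon-inducible gene, was lower. A member was called where its adjusted p was under 0.05 in edgeR's quasi-likelihood test over 16049 genes. By that rule 1 of 39 members was higher, where 15.0% of all genes were, and 1 was lower, where 12.1% of all genes were. The median log2 fold change of the members was -0.28, against 0.00 over all genes tested.

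Bst2 had 45.5, 32.9 and 27.3 CPM in peak nerve, against 16.5, 18.3 and 21.9 CPM in no disease nerve. Each peak library lay above each no disease library. Its log2 fold change was 0.90 ± 0.28 (SE; adjusted p = 0.0404), and it was no longer called without any 1 of the no disease libraries or of peak replicates 1 and 2, with log2 fold changes between 0.67 and 1.02. Ifi27l2a had 65.3, 36.6 and 74.6 CPM in peak nerve, against 129.6, 101 and 116 CPM in no disease nerve. Here each peak library lay below each no disease library, the log2 fold change was -0.97 ± 0.24 (SE; adjusted p = 0.0144), and the call held whichever library was left out.

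The Oas family and the antiviral effectors split the 3 peak nerve libraries. Rsad2, an enzyme that makes a chain terminator of viral RNA synthesis, had 19.8, 4.16 and 5.08 CPM in peak nerve, against 12.7, 9.07 and 18.8 CPM in no disease nerve. Oas2, which makes the 2-5A messenger that switches on RNase L, had 10.6, 2.97 and 3.50 CPM in peak nerve, against 13.3, 8.25 and 10.5 CPM in no disease nerve. Mx1, a GTPase gene that protects mice from influenza where it is intact and that carries a disabling deletion in the C57BL/6 strain, had 12.5, 3.31 and 3.25 CPM in peak nerve, against 6.27, 4.12 and 8.51 CPM in no disease nerve. In all 3 genes peak replicate 1 stood well above replicates 2 and 3. Without that library 7 members were called lower, where 8.50% of all genes were, namely Ifi27l2a, Oas2, Oasl1, Oasl2, Rsad2, Rtp4 and Ifi44, and none higher. Without no disease replicate 1, 3 were called lower, namely Ifi27l2a, Gbp4 and Tgtp1. The share of all genes called lower in that fit is not given here. Over the fits that left out a library, between 1320 and 2191 of all genes were called lower, against 1949 with all libraries kept. The count of 3 thus cannot be read as a trait of the members.

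None of the 7 GBPs and none of the 7 IRGs was called at peak in nerve. Their median log2 fold changes were -0.31 and -0.29, with 6 GBPs and all 7 IRGs below 0. Gbp6 had 5.03, 3.71 and 3.79 CPM in peak nerve, against 8.38, 8.25 and 8.89 CPM in no disease nerve, so that the groups did not overlap. Gbp5, a GBP that takes part in inflammasome assembly, had 15.7, 12.5 and 19.0 CPM in peak nerve, against 13.1, 16.8 and 27.6 CPM in no disease nerve. The 4 Ifit genes were also uncalled, with a median of 0.12, as were Isg15, Usp18 and the 4 transcription factors. Irf1, a factor that both interferon types induce, stood at 41.9, 47.0 and 49.8 CPM in peak nerve, against 36.8, 38.1 and 41.2 CPM in no disease nerve.

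Genes upstream of the members did pass the test in peak nerve. Of 10 receptor and kinase genes tested, 5 were higher and none lower, beside 15.0% and 12.1% of all genes. Ifngr2, the signalling chain of the interferon gamma receptor, had 57.2, 67.3 and 52.7 CPM in peak nerve, against 34.0, 34.1 and 36.5 CPM in no disease nerve. Its log2 fold change was 0.76 ± 0.11 (SE; adjusted p = 0.000954). Il10rb, shared by the receptors for interferon lambda and interleukin-10, changed by 0.52 ± 0.10 on the log2 scale (adjusted p = 0.00410). Ifnar1 changed by 0.38 ± 0.08 (adjusted p = 0.00807) and its kinase Tyk2 by 0.38 ± 0.09 (adjusted p = 0.0112). Ifnar2 changed by 0.32 ± 0.09 (adjusted p = 0.0244), a call lost without no disease replicate 2 or 3 or peak replicate 1 or 2, with 0.26 to 0.34. The other chain for interferon gamma, Ifngr1, was not called, at 151, 109.9 and 129.7 CPM in peak nerve, against 173, 146 and 135 CPM in no disease nerve. In log2 fold change, the uncalled receptor, kinase and feedback genes followed by name in peak nerve were Ifngr1 (-0.21), Jak1 (-0.08), Jak2 (-0.22) and Socs1 (-0.46).

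Among 18 sensors and inducers, 5 were higher in peak nerve and none lower. Irf8, a transcription factor of macrophages and dendritic cells, had 32.9, 48.7 and 29.8 CPM in peak nerve, against 14.0, 12.0 and 12.2 CPM in no disease nerve (log2 fold change 1.54 ± 0.21, adjusted p = 0.000684). The RNA sensor Tlr8 changed by 1.55 ± 0.26 on the log2 scale (adjusted p = 0.00239) and the DNA sensor Aim2 by 1.45 ± 0.23 (adjusted p = 0.00166). Tlr7 changed by 1.31 ± 0.32 (adjusted p = 0.0150) and Irf5 by 0.70 ± 0.18 (adjusted p = 0.0168). Both were no longer called without no disease replicate 2 (1.20 and 0.58) or replicate 3 (1.13 and 0.64), and Irf5 also without peak replicate 2 (0.59). Of 7 feedback inhibitors, the phosphatase Ptpn6 was higher (1.03 ± 0.24, adjusted p = 0.0109) and Pias1 lower (-0.34 ± 0.08, adjusted p = 0.0115). These genes moved beside macrophage markers, of which 5 of 8 were higher and none lower, with summed levels of 2104 to 4491 CPM in peak nerve and 775 to 1303 CPM in no disease nerve. No macrophage marker was at 0, and the part of these cells in the result was not tested. In bulk tissue, fewer cells of a type and less RNA per cell cannot be told apart.

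Of 57 interferon-inducible genes tested outside the 39, 9 were lower in peak nerve and 1 was higher, a lower share near the 12.1% of all genes. Ifi205, a family member of the DNA-binding p200 proteins, had 47.6, 16.0 and 23.1 CPM in peak nerve, against 82.7, 121 and 117 CPM in no disease nerve (log2 fold change -1.88 ± 0.33, adjusted p = 0.00288). Gbp11, a GBP in the cluster of Gbp4 and Gbp6, was lower (-1.50 ± 0.27, adjusted p = 0.00310), as was the giant GTPase gene Gvin1 (-1.13 ± 0.33, adjusted p = 0.0318). The Gvin1 call was lost without no disease replicate 3 or peak replicate 2 or 3 (-1.04 to -0.81). Slfn9, of the Schlafen family, was the gene that was higher, at 23.9, 22.6 and 14.3 CPM in peak nerve against 7.07, 6.14 and 6.83 CPM in no disease nerve (1.59 ± 0.27, adjusted p = 0.00260). Endothelial markers were lower beside them, 4 of 5 called, with sums of 105 to 264 CPM in peak nerve and 367 to 376 CPM in no disease nerve and none at 0. The fall was not particular to these markers. Called lower were also 4 of 6 neuron, 3 of 5 skeletal muscle and 3 of 4 erythrocyte markers and the 2 neutrophil markers tested. The part of any of these cells in the result was not tested.

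**Figure D3:**
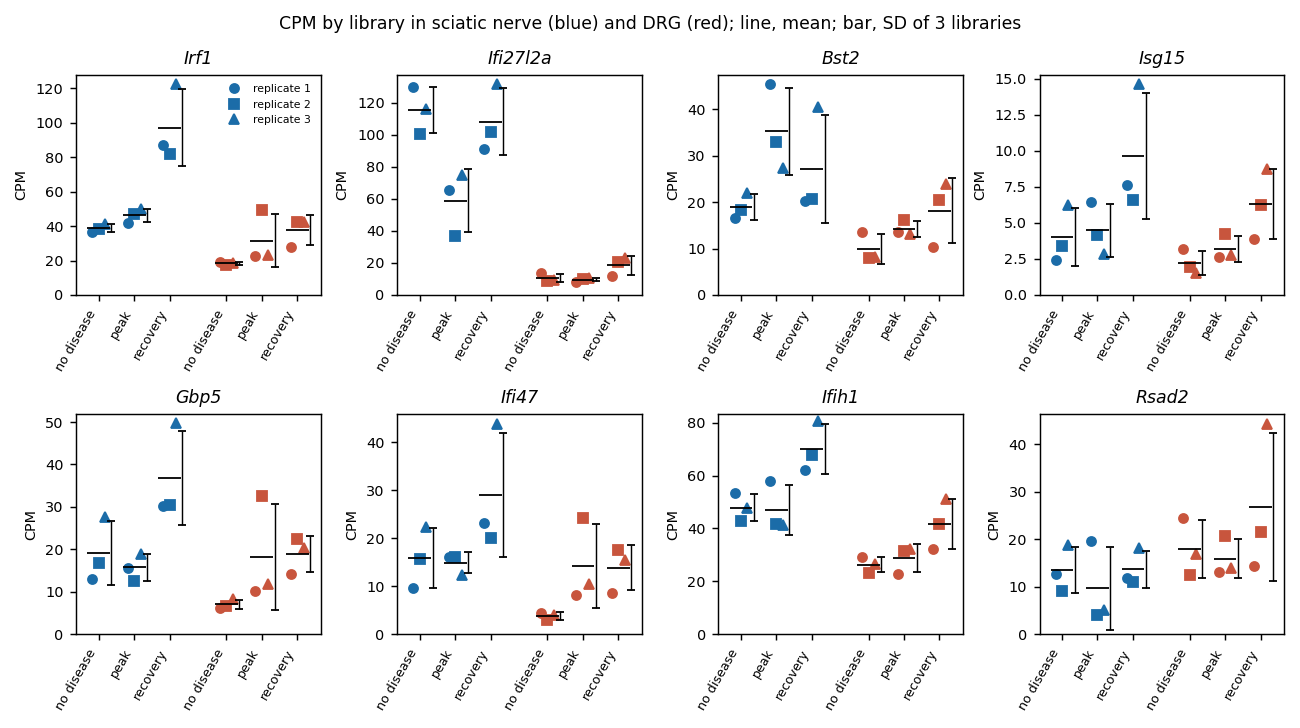
CPM of 8 members in every library (points, shaped by replicate number) of sciatic nerve (blue) and DRG (red), by stage, each tissue scaled on its own; horizontal lines are means and bars SD of 3 libraries. Irf1 is at 81.8 to 123 CPM in recovery nerve, above all other nerve libraries, while Gbp5 and Ifi47 in DRG reach their highest value in peak replicate 2.

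Recovery nerve differed from no disease nerve in 1 member. Irf1 was higher at recovery, with 87.3, 81.8 and 123 CPM in recovery nerve, against 36.8, 38.1 and 41.2 CPM in no disease nerve. The lowest recovery library lay well above the highest no disease library. Its log2 fold change was 1.33 ± 0.15 (SE; adjusted p = 0.00622), and it remained called in each fit that left out 1 library, with 1.13 to 1.44. This was 1 of 39 members called higher, where 0.629% of all genes were, and none was lower, where 0.393% of all genes were. Exons of Irf1 (chromosome 11, 53770014 to 53778374) overlap 135 bases of Gm17334 on the other strand, and the strand setting of the counts is not known.

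In recovery nerve replicate 3 was nearly always the highest library of the other members too. The median log2 fold change of the 39 was 0.38, with 33 above 0, but it was -0.01 without recovery replicate 3. Gbp2 had 86.4, 67.2 and 247 CPM in recovery nerve, against 58.3, 69.0 and 119.9 CPM in no disease nerve. Igtp, an IRG that also goes by Irgm3, had 29.0, 22.1 and 81.1 CPM in recovery nerve, against 17.7, 20.3 and 33.2 CPM in no disease nerve. Isg15 had 7.63, 6.62 and 14.6 CPM in recovery nerve, against 2.39, 3.39 and 6.25 CPM in no disease nerve, and although the groups did not overlap it was not called. In each of these genes recovery replicate 3 held the highest value. Groups did not overlap for 5 members, all above, where 11.6% of all genes were above and 10.1% below. None of the 10 receptor and kinase genes tested, the 18 sensors or the 57 other inducible genes was called, nor any of 8 macrophage markers. The log2 fold changes of the same genes at recovery, none of them called, were Ifnar1 (0.13), Ifnar2 (0.14), Ifngr1 (-0.03), Ifngr2 (-0.01), Jak1 (-0.14), Jak2 (-0.08), Tyk2 (0.27), Socs1 (-0.24) and Irf8 (0.71).

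Between peak and recovery, 7 of 39 members were higher in recovery nerve, where 7.36% of all genes were, and none was lower, where 11.1% of all genes were. They were Irf1, Ifih1, Gbp5, Gbp6, Gbp9, Tgtp1 and Ifi27l2a. The median log2 fold change of the members was 0.58, with 38 of 39 above 0, against 0.00 over all genes. Both this and the comparison of recovery with no disease use the recovery libraries, and both this and the peak comparison use the peak libraries.

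Irf1 changed by 1.07 ± 0.15 on the log2 scale (adjusted p = 0.00147), with the recovery values above and 41.9, 47.0 and 49.8 CPM in peak nerve. Ifih1, also known as MDA5, a sensor of long double-stranded RNA, had 62.0, 67.6 and 80.4 CPM in recovery nerve, against 57.8, 41.7 and 41.4 CPM in peak nerve (0.58 ± 0.15, adjusted p = 0.0266). Gbp5 had 30.3, 30.5 and 49.7 CPM in recovery nerve, against 15.7, 12.5 and 19.0 CPM in peak nerve (1.22 ± 0.29, adjusted p = 0.0184). Every recovery library lay above every peak library in these 3 genes.

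Gbp9 had 35.9, 38.6 and 56.8 CPM in recovery nerve, against 30.6, 24.5 and 29.6 CPM in peak nerve (0.63 ± 0.19, adjusted p = 0.0436). Gbp6 had 6.81, 5.80 and 18.5 CPM in recovery nerve, against 5.03, 3.71 and 3.79 CPM in peak nerve (1.32 ± 0.39, adjusted p = 0.0419). Tgtp1, an IRG, had 4.52, 4.27 and 8.13 CPM in recovery nerve, against 2.04, 1.43 and 1.96 CPM in peak nerve (1.64 ± 0.50, adjusted p = 0.0474). The last 2 are uncertain as single genes: 81.2% of the 50-base windows of Tgtp1 also occur in another gene, mainly Tgtp2, and 70.7% of those of Gbp6, mainly in Gm43302. Ifi27l2a had 91.1, 102 and 131 CPM in recovery nerve, against 65.3, 36.6 and 74.6 CPM in peak nerve (0.87 ± 0.24, adjusted p = 0.0304). These 4 genes did not overlap between stages either. Without overlap, 13 of 39 members lay above at recovery, where 18.9% of all genes did, and none lay below, where 21.6% did.

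Of these calls, Irf1 alone held whichever library was left out, with 0.87 to 1.18, and between 2.62% and 9.92% of all genes were called higher in these fits. Without recovery replicate 3, Irf1 was the 1 member called higher and Bst2 was called lower, and the other 6 were at 0.40 to 1.27. Without peak replicate 2, 2 members were higher, namely Irf1 and Ifi27l2a, and without peak replicate 3, 4, namely Irf1, Gbp4, Gbp5 and Ifi27l2a. Without recovery replicate 2, 3 were higher, namely Irf1, Gbp5 and Gbp6, and without recovery replicate 1, 5, since Tgtp1 and Ifi27l2a were lost. Leaving out peak replicate 1 kept the count at 7 but not the genes, with Irf1 and Ifih1 joined by Ifit1, Usp18, Oasl1, Oasl2 and Rsad2.

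The receptor and sensor genes that were called were lower at recovery. Ifngr2 was lower in recovery nerve, at 36.8, 31.0 and 36.0 CPM against 57.2, 67.3 and 52.7 CPM in peak nerve (-0.77 ± 0.11, adjusted p = 0.00168), the 1 call among 10 receptor and kinase genes. Of 18 sensors and inducers 5 were lower and none higher, namely Tlr7 (-1.09 ± 0.32, adjusted p = 0.0399), Tlr8 (-1.08 ± 0.25, adjusted p = 0.0183), Irf8 (-0.83 ± 0.20, adjusted p = 0.0188), Aim2 (-0.78 ± 0.22, adjusted p = 0.0351) and Mb21d1, which encodes the DNA sensor cGAS (-0.73 ± 0.19, adjusted p = 0.0244). None of these 5 stayed called without recovery replicate 1 or without recovery replicate 2, with -1.07 to -0.61, and Tlr7, Tlr8, Aim2 and Mb21d1 were also lost without peak replicate 2 (-0.97 to -0.59) and all but Tlr8 of those 4 without peak replicate 1 (-0.92 to -0.73). Of 8 macrophage markers 5 were called lower beside them and none was at 0, with sums of 1265 to 1557 CPM in recovery nerve and 2104 to 4491 CPM in peak nerve. Their part in the result was not tested. Among 57 other inducible genes, Gbp11 was higher at recovery (1.54 ± 0.26, adjusted p = 0.00433) and Slfn9 lower (-1.27 ± 0.26, adjusted p = 0.0108). Ly6a was higher too (0.56 ± 0.15, adjusted p = 0.0275), though not without peak replicate 2 or 3 or recovery replicate 1 or 2 (0.44 to 0.60). Between recovery and peak nerve the uncalled ones were, in log2 fold change, Ifnar1 (-0.25), Ifnar2 (-0.18), Ifngr1 (0.18), Jak1 (-0.06), Jak2 (0.13), Tyk2 (-0.11) and Socs1 (0.22).

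**Figure D4:**
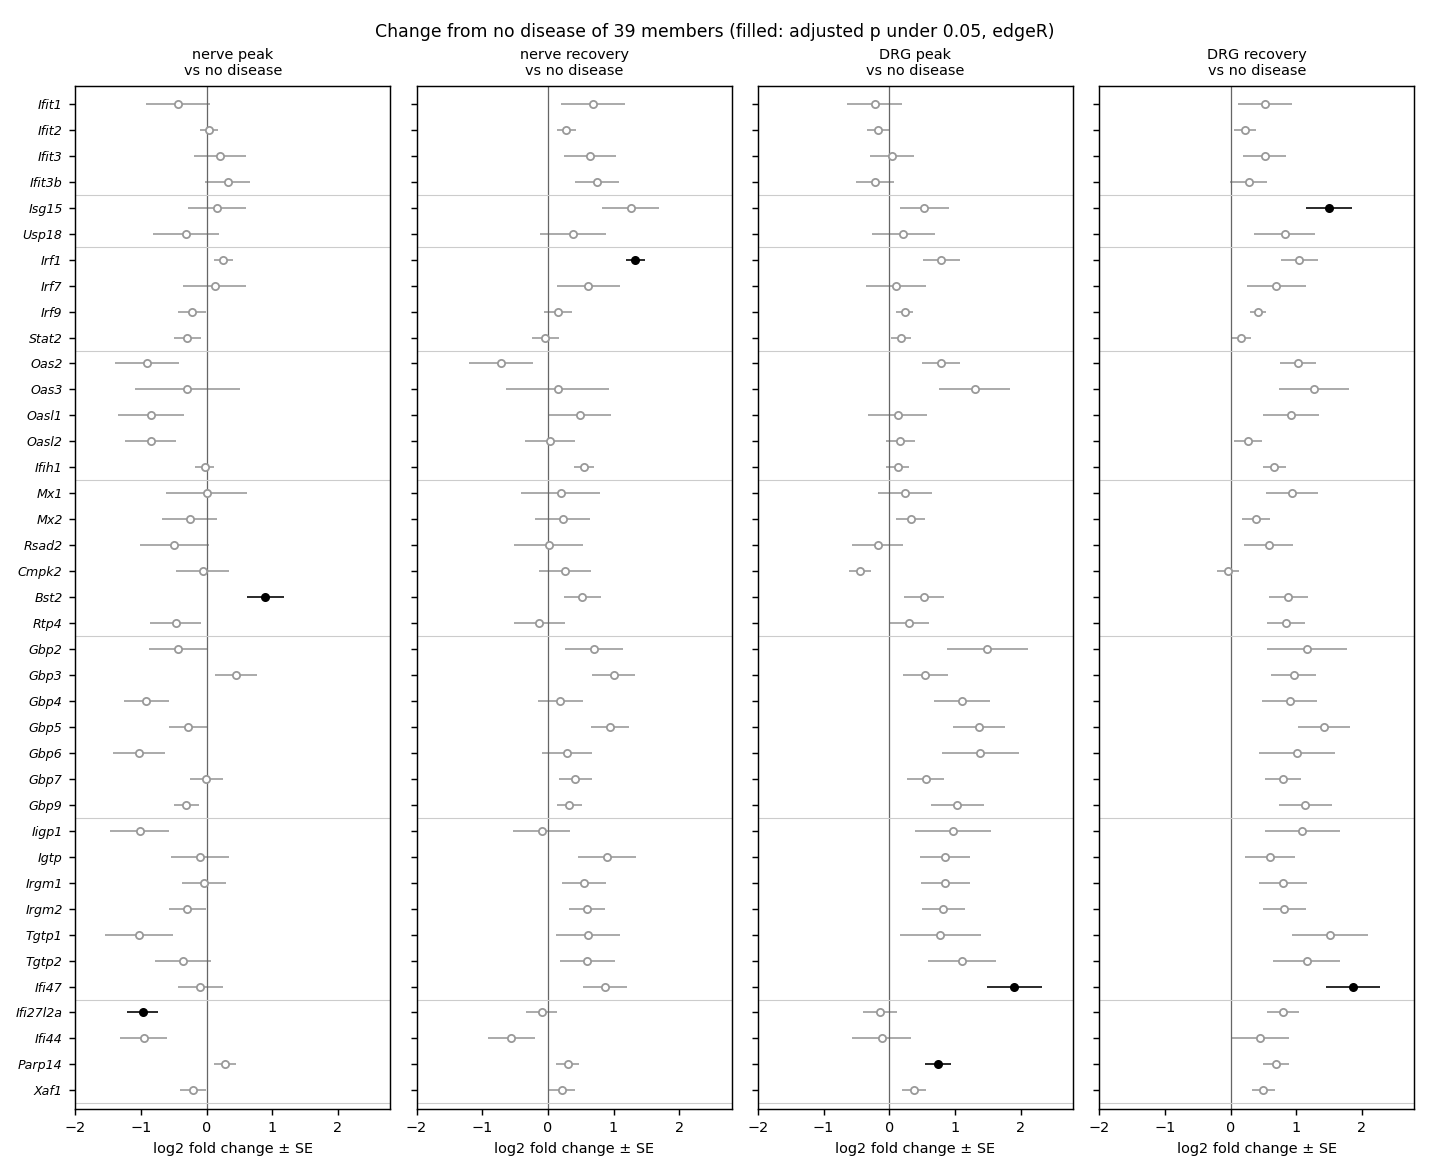
Log2 fold change with its SE (bars) of the 39 members (rows, by role) at peak and at recovery against no disease, in nerve and in DRG; filled points are members called at adjusted p under 0.05 in edgeR. The 7 GBPs and 7 IRGs lie right of 0 in both DRG panels, and in the nerve peak panel 13 of these 14 lie left of it.

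In DRG at peak, Ifi47 and Parp14 were higher than with no disease. They were 2 of 39 members called higher, where 4.42% of all 16482 genes tested were, and no member was lower, where 3.21% of all genes were. The median log2 fold change of the members was 0.53, against 0.01 over all genes. Ifi47, an IRG, had 8.10, 24.2 and 10.5 CPM in peak DRG, against 4.53, 3.02 and 3.93 CPM in no disease DRG, with every peak library above every no disease library (1.90 ± 0.42, adjusted p = 0.0240). Parp14, a mono-ADP-ribosyltransferase, had 49.2, 83.3 and 62.9 CPM in peak DRG, against 40.0, 42.8 and 33.4 CPM in no disease DRG, again without overlap (0.75 ± 0.20, adjusted p = 0.0456). Neither was called without peak replicate 2 (1.26 and 0.52) or without any 1 of the 3 no disease libraries (1.74 to 2.03 and 0.66 to 0.81), and Parp14 also not without peak replicate 3 (0.78). Exons of Ifi47 overlap 217 bases of Olfr56 and Gm12188.

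The GBPs and IRGs of DRG were high in peak replicate 2. Gbp2 had 20.4, 130.2 and 28.8 CPM in peak DRG, against 20.3, 20.4 and 23.3 CPM in no disease DRG. Gbp6 had 3.82, 20.4 and 4.33 CPM in peak DRG, against 3.61, 3.63 and 3.76 CPM in no disease DRG. Iigp1, an IRG that disrupts the vacuoles of parasites, had 10.4, 59.1 and 17.4 CPM in peak DRG, against 20.3, 12.7 and 11.3 CPM in no disease DRG. In all 3, replicates 1 and 3 lay near the no disease level and replicate 2 far above it. In that library the median log2 level over the no disease mean was 1.97 for the 7 GBPs and 1.88 for the 7 IRGs, against 0.16 for the 4 Ifit genes and 0.56 for the 6 antiviral effectors. In peak replicates 1 and 3 the GBP medians were 0.01 and 0.43 and the IRG medians 0.14 and 0.27. The sum of 8 macrophage markers was 288 CPM in peak replicate 2, against 439 and 489 CPM in peak replicates 1 and 3, and that of 9 T cell markers 4.32 CPM, against 6.49 and 8.26 CPM. The sum of 8 NK and cytotoxic cell markers was the highest of the group in replicate 2, at 2.39 CPM against 1.53 and 1.82 CPM, with 1 of the 8 at 0 in replicate 2 and 3 and 4 of them at 0 in replicates 1 and 3. In no disease DRG that sum was 1.87 to 2.38 CPM, so replicate 2 stood at about the top of the no disease range. The macrophage sums there were 163 to 177 CPM and the T cell sums 2.06 to 3.23 CPM. The part of these cells in the result was not tested.

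**Figure D5:**
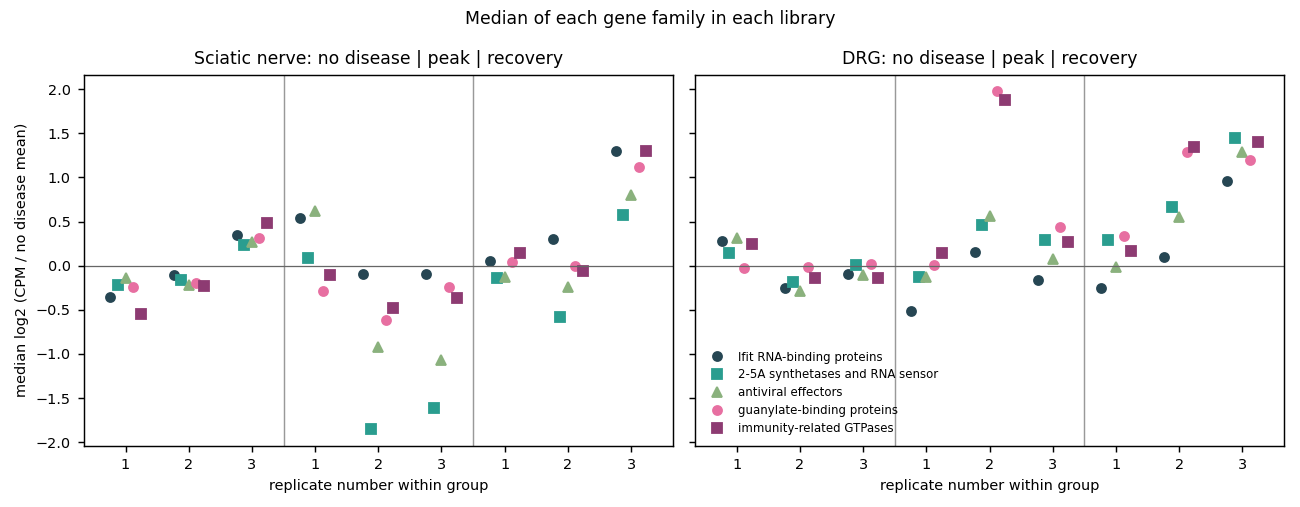
Median over each of 5 gene families of log2 (CPM over the mean of the tissue's no disease libraries), by library (horizontal axis, replicate number within stage) in nerve (left) and DRG (right). In DRG peak replicate 2 the GBPs (1.97) and IRGs (1.88) stand far above the Ifit genes (0.16), and in peak nerve replicates 2 and 3 the Oas family (-1.85 and -1.61) lies lowest.

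Isg15, Usp18, the 4 Ifit genes, the Oas family with Ifih1 and the antiviral effectors were all uncalled in DRG at peak. Their ranges of log2 fold change were 0.21 to 0.54 for Isg15 and Usp18, -0.22 to 0.04 for the Ifit genes, 0.13 to 1.30 for the Oas family with Ifih1 and -0.45 to 0.53 for the effectors. Irf1 had 22.4, 49.2 and 23.2 CPM in peak DRG, against 19.1, 17.3 and 18.5 CPM in no disease DRG, without overlap but not called. Of the pathway genes, Irf8 was the 1 sensor or inducer of 18 to be higher, at 8.04, 7.97 and 7.93 CPM in peak DRG against 4.53, 3.52 and 3.37 CPM in no disease DRG (1.07 ± 0.25, adjusted p = 0.0295). None of 11 receptor and kinase genes was called. Their log2 fold changes in peak DRG, with that of the inhibitor Socs1, were Ifnar1 (0.25), Ifnar2 (0.26), Ifngr1 (-0.10), Ifngr2 (-0.12), Jak1 (0.02), Jak2 (0.17), Tyk2 (0.27) and Socs1 (1.12). Of 57 other inducible genes Slfn9 (1.35 ± 0.24, adjusted p = 0.0103) and Slfn8 (1.03 ± 0.27, adjusted p = 0.0466) were higher. Irf8 and Slfn8 lost their calls whichever of the 6 libraries was left out, with 0.99 to 1.20 and 0.88 to 1.12, and Slfn9 kept its call each time. Of 8 macrophage markers 5 were higher and none was at 0, with sums of 288 to 489 CPM in peak DRG and 163 to 177 CPM in no disease DRG, and 4 of 6 Schwann cell markers were higher too. The part of these cells in the result was not tested.

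In recovery DRG, nearly every member had a log2 fold change above 0, but 2 passed the test. Isg15 and Ifi47 were 2 of 39 members called higher, where 2.44% of all genes were, and none was lower, where 0.734% of all genes were. The median log2 fold change was 0.82, against 0.00 over all genes, with 38 of 39 members above 0 and Cmpk2 at -0.04. At an unadjusted p under 0.05 there were 20 members higher, where 13.1% of all genes were, and none lower, where 9.37% were. The groups did not overlap for 17 members, all above, where 13.7% of all genes were.

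Isg15 had 3.89, 6.24 and 8.77 CPM in recovery DRG, against 3.18, 1.96 and 1.51 CPM in no disease DRG (1.51 ± 0.35, adjusted p = 0.0494). Ifi47 had 8.55, 17.6 and 15.5 CPM in recovery DRG, against 4.53, 3.02 and 3.93 CPM in no disease DRG (1.86 ± 0.41, adjusted p = 0.0415). In neither did the groups overlap, and recovery replicate 1 was the nearest to no disease in both. All 7 GBPs lay above no disease without overlap and none was called. Their log2 fold changes ran between 0.80 and 1.42. Gbp5 had 14.2, 22.3 and 20.3 CPM in recovery DRG, against 6.31, 6.60 and 8.30 CPM in no disease DRG. The 7 IRGs ran between 0.60 and 1.86, the 4 Ifit genes between 0.21 and 0.52 and the 4 transcription factors between 0.15 and 1.04. Rsad2 had 14.4, 21.6 and 44.3 CPM in recovery DRG, against 24.6, 12.5 and 16.8 CPM in no disease DRG, which overlapped.

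This count moved with every library left out. Without recovery replicate 1, 20 members were called higher, where 10.5% of all genes were, while without any 1 of the other 5 libraries none was, where at most 0.252% of all genes were, with Isg15 at 1.18 to 1.84 and Ifi47 at 1.64 to 1.98. The 18 members added were Irf1, Irf9, Oas2, Oas3, Ifih1, Mx1, Bst2, Rtp4, Gbp3, Gbp5, Gbp7, Gbp9, Irgm1, Tgtp1, Tgtp2, Ifi27l2a, Parp14 and Xaf1. Recovery replicate 1 also stood apart in markers of blood. Its 5 neutrophil markers summed to 45.4 CPM and its 4 erythrocyte markers to 45.5 CPM, against 463 and 401 CPM and 542 and 352 CPM in recovery replicates 2 and 3. In no disease DRG the neutrophil sums were 53.8 to 160 CPM and the erythrocyte sums 52.8 to 138 CPM, and none of these markers was at 0. Macrophage markers followed the same order, with 190 CPM in recovery replicate 1 against 425 and 401 CPM in recovery replicates 2 and 3, and 163 to 177 CPM in no disease DRG. Of 8 macrophage markers 3 were called higher, as were 4 of 6 Schwann cell markers, and none of the 5 neutrophil or 4 erythrocyte markers was. The part of these cells in the result was not tested.

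Irf8 was again higher, at 5.99, 11.4 and 11.6 CPM in recovery DRG against 4.53, 3.52 and 3.37 CPM in no disease DRG (1.35 ± 0.24, adjusted p = 0.0266). Slfn8 (1.28 ± 0.27, adjusted p = 0.0345) and Ciita, the switch of class II antigen presentation (1.27 ± 0.24, adjusted p = 0.0281), were the 2 of 57 other inducible genes called. All 3 kept their calls without recovery replicate 1 and lost them without any other library, with 1.02 to 1.48. Socs1, an inhibitor of JAK kinases that interferons induce, had 0.358, 0.944 and 1.40 CPM in recovery DRG, against 0.539, 0.391 and 0.337 CPM in no disease DRG, and was not called. None of 11 receptor and kinase genes was called. Jak1 had 427, 335 and 320.2 CPM in recovery DRG, against 444, 451 and 423 CPM in no disease DRG. Log2 fold changes in recovery DRG of the uncalled genes followed by name were Ifnar1 (0.19), Ifnar2 (0.36), Ifngr1 (0.05), Ifngr2 (0.02), Jak1 (-0.29), Jak2 (0.11), Tyk2 (0.31) and Socs1 (1.10).

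Between peak and recovery in DRG no member was called in edgeR, where 0.0303% of all genes were higher and 0.109% were lower. At an unadjusted p under 0.05, 5 members were higher, where 7.03% of all genes were, and none lower, where 7.37% were, and DESeq2 called 1 higher, Ifi27l2a. Ifi27l2a had 11.7, 20.5 and 23.2 CPM in recovery DRG, against 8.37, 10.2 and 10.4 CPM in peak DRG, the 1 member without overlap, where 8.51% of all genes lay above without overlap and 7.43% below. Without recovery replicate 1, 5 members were called higher, where 3.47% of all genes were, namely Ifit2, Isg15, Ifih1, Rtp4 and Ifi27l2a. The 6 antiviral effectors were at 0.06 to 0.75 on the log2 scale and the 7 GBPs at -0.37 to 0.41. The upstream genes, none called, were at log2 fold changes of Ifnar1 (-0.06), Ifnar2 (0.10), Ifngr1 (0.16), Ifngr2 (0.14), Jak1 (-0.30), Jak2 (-0.07), Tyk2 (0.04), Socs1 (-0.02) and Irf8 (0.28).

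The change at peak differed between the tissues for 4 members. For Gbp4, Gbp5, Gbp6 and Ifi47 the log2 fold change of peak over no disease was lower in nerve than in DRG, as tested in 1 fit of all 18 libraries. They were 4 of 39 members with a negative difference, where 9.47% of all 17289 genes were, and none had a positive one, where 6.63% of all genes did. The difference of log2 fold changes, nerve minus DRG, was -2.07 ± 0.60 for Gbp4 (adjusted p = 0.0304) and -1.69 ± 0.54 for Gbp5 (adjusted p = 0.0435). It was -2.45 ± 0.78 for Gbp6 (adjusted p = 0.0437) and -2.03 ± 0.59 for Ifi47 (adjusted p = 0.0292). Gbp4 had 11.3, 8.50 and 14.9 CPM in peak nerve, against 14.9, 15.2 and 35.4 CPM in no disease nerve. In DRG it had 6.30, 23.6 and 8.89 CPM at peak, against 6.09, 6.99 and 4.94 CPM with no disease. The median difference over the 39 members was -0.63, against -0.08 over all genes, and all 7 GBPs and 7 IRGs were below 0.

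The 4 differences depended on which library was left out, while between 5.83% and 9.81% of all genes were negative in these fits. None was called without DRG peak replicate 2 (-1.40 to -0.94), without nerve no disease replicate 3 (-2.45 to -1.35) or without DRG no disease replicate 3 (-2.49 to -1.84). Without nerve no disease replicate 1, Gbp6 (-2.44) was lost. Without nerve peak replicate 2, DRG no disease replicate 1 or DRG no disease replicate 2, 1 was left in each case, and without nerve no disease replicate 2 or nerve peak replicate 3, 2. Without nerve peak replicate 1 there were again 4, of which Ifi47 was the 1 in common and Oas2, Oas3 and Oasl2 were added, and without DRG peak replicate 1 there were 6, with Gbp9 and Iigp1 added. At recovery no difference between the tissues was called in edgeR among the members, where 0.133% of all genes were positive and 0.324% negative. At an unadjusted p under 0.05, 2 members were below 0, where 9.36% of all genes were, and none above, where 4.49% were, and neither DESeq2 nor limma-voom called any.

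Upstream, the tissue difference at peak was positive for Ifngr2 (0.84 ± 0.14, adjusted p = 0.00121) and Il10rb (0.59 ± 0.14, adjusted p = 0.0106), and negative for the kinase Jak2 (-0.43 ± 0.11, adjusted p = 0.0155) and Pias1 (-0.45 ± 0.11, adjusted p = 0.0106). Ifngr2 had 44.1, 46.6 and 51.9 CPM in peak DRG, against 51.0, 50.2 and 54.1 CPM in no disease DRG, next to its rise in peak nerve. Each of these 4 held whichever library was left out. Jak2 and Pias1 were not called with no filter on low counts (-0.33 and -0.35). Tissue differences that were not called were Ifnar1 (0.09), Ifnar2 (0.03), Ifngr1 (-0.16), Jak1 (-0.14), Tyk2 (0.07), Socs1 (-1.63) and Irf8 (0.43). Of 57 other inducible genes 5 were negative, where 9.47% of all genes were, and none positive, where 6.63% were. The negative share is near that of all genes and cannot be read as a trait of this list. The 4 largest of those called were Slfn4 (-3.69 ± 1.14), Ifi205 (-2.53 ± 0.72), Ifi203 (-1.43 ± 0.38) and Ifi207 (-1.36 ± 0.39), with adjusted p of 0.0377, 0.0274, 0.0195 and 0.0293. Slfn4 was lost without any 1 of nerve no disease replicate 3, nerve peak replicates 2 and 3, DRG no disease replicates 2 and 3 and DRG peak replicates 1 and 3 (-3.74 to -2.25), and Ifi203 without DRG peak replicate 1 (-1.22). Ifi205 was lost without DRG no disease replicate 2 or 3 or DRG peak replicate 2 (-2.45 to -2.21). Ifi207 was lost without nerve no disease replicate 1, nerve peak replicate 2, DRG no disease replicate 1 or 2 or DRG peak replicate 1 or 3 (-1.35 to -1.20).

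With no disease, most of the members that differed between the tissues were higher in nerve than in DRG. Of 39 members 18 were higher in nerve, where 37.4% of all genes were, and 2 were lower, where 37.0% of all genes were. The median log2 fold change, nerve over DRG, was 0.77, against 0.04 over all genes. Levels in this comparison are CPM scaled over all 18 libraries. Ifi27l2a had 130.3, 97.5 and 112 CPM in nerve, against 14.4, 9.22 and 9.84 CPM in DRG (3.34 ± 0.28, adjusted p = 1.86e-08). Oas2 had 13.4, 7.995 and 10.2 CPM in nerve, against 1.70, 2.16 and 2.00 CPM in DRG (2.43 ± 0.47, adjusted p = 0.000191). Parp14 had 127, 102 and 134 CPM in nerve, against 41.98, 44.7 and 35.1 CPM in DRG (1.58 ± 0.21, adjusted p = 3.13e-06). None of these groups overlapped, beside 39.3% of all genes that lay above in nerve without overlap.

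Among the GBPs 5 of 7 were higher in nerve and among the IRGs 5 of 7. Gbp2 had 58.6, 66.9 and 116 CPM in nerve, against 21.3, 21.3 and 24.5 CPM in DRG (1.85 ± 0.61, adjusted p = 0.0122). Gbp9 had 33.0, 28.9 and 40.8 CPM in nerve, against 11.4, 11.7 and 11.8 CPM in DRG (1.56 ± 0.35, adjusted p = 0.000827). Ifi47 had 9.80, 15.2 and 21.6 CPM in nerve, against 4.75, 3.15 and 4.12 CPM in DRG (1.95 ± 0.44, adjusted p = 0.000764). The other called GBPs were Gbp4, Gbp5 and Gbp7, with log2 fold changes of 1.77, 1.34 and 0.96, and the other called IRGs were Tgtp1, Iigp1, Irgm2 and Irgm1, with 2.08, 1.45, 1.22 and 1.05. No nerve library overlapped a DRG library in any of these 10 genes. Without overlap, 22 of 39 members lay above in nerve, where 39.3% of all genes did, and 3 lay below, where 38.9% did.

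Of the transcription factors Irf1 and Irf9 were higher in nerve, by 0.98 ± 0.25 (adjusted p = 0.00200) and 0.66 ± 0.19 (adjusted p = 0.00456). Stat2, the partner of Irf9, was lower, with 31.4, 32.2 and 41.96 CPM in nerve, against 59.6, 52.8 and 50.3 CPM in DRG (-0.62 ± 0.19, adjusted p = 0.00852). Cmpk2, a mitochondrial nucleotide kinase encoded beside Rsad2, was the other member lower in nerve, with 14.0, 10.2 and 14.6 CPM in nerve, against 51.0, 39.6 and 39.5 CPM in DRG (-1.73 ± 0.34, adjusted p = 0.000220). Ifih1, Bst2 and Xaf1 were also higher, by 0.77, 0.84 and 0.89. None of the 4 Ifit genes was called, with -0.999 to 0.56, nor Isg15 or Usp18. Upstream, Ifngr1 was higher in nerve (1.70 ± 0.15, adjusted p = 3.75e-08) and Jak1 lower (-1.13 ± 0.11, adjusted p = 1.27e-07), 2 of the 9 receptor and kinase genes called out of 11. Socs1 was not called (1.19). Irf8 was higher as well (1.65 ± 0.25, adjusted p = 2.01e-05). Macrophage markers were higher in nerve, 8 of 8, with sums of 775 to 1303 CPM in nerve and 163 to 177 CPM in DRG, and endothelial markers, 5 of 5, with 367 to 376 CPM in nerve and 66.6 to 87.3 CPM in DRG. No marker of either list was at 0, and their part in the result was not tested.

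Between 14 and 18 of 39 members were called higher in nerve whichever no disease library was left out. With all libraries kept, 18 members were, beside 37.4% of all genes. Ifit1 joined the members called lower without nerve no disease replicate 3. In that fit Bst2 (0.76), Iigp1 (1.00), Irgm1 (0.93) and Tgtp1 (1.25) were not called higher. Without DRG no disease replicate 2, Bst2 (0.70), Iigp1 (1.35) and Irgm1 (0.98) were not, nor, without DRG no disease replicate 3, Bst2 (0.75) and Iigp1 (1.32).

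Per kilobase of exon, with CPM again scaled over all 18 libraries, Ifi27l2a was the most abundant member in no disease nerve, at 245 ± 35.5 CPM per kb (SD, n = 3), followed by Gbp2 at 32.0 ± 12.3 and Ifit3 at 31.2 ± 9.02 CPM per kb, which did not differ beyond their spread. In no disease DRG, Ifi27l2a led at 24.1 ± 6.14 CPM per kb, with Ifit1 at 21.6 ± 11.3, Ifit3 at 21.2 ± 4.99 and Ifit2 at 21.1 ± 1.49 CPM per kb within its spread. Oas3 was the lowest in both, at 0.313 ± 0.0977 CPM per kb in nerve and 0.141 ± 0.0799 CPM per kb in DRG. Of Ifit3 and Ifit3b, 51.2% and 45.0% of the 50-base windows occur in another gene, mainly each other, so their split is uncertain.

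In the authors' deposited table, read at q under 0.05, more members were called. Shares in the authors' deposited table are of all 28684 genes, those with few or no reads included. Counted from the authors' deposited table, 1 member was higher (6.31% of all genes) and 3 were lower (4.999%) in peak nerve, and 5 were higher in recovery nerve (1.08%), both against no disease. Recovery against peak nerve had 14 higher (3.89%) in the authors' deposited table. In DRG the authors' deposited table has 13 higher (3.44%) and 1 lower (1.91%) at peak and 20 higher (2.64%) at recovery, both against no disease, and 1 higher (0.150%) at recovery against peak. Every member called here between stages was also called in the same direction in the authors' deposited table.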

How the data were processed

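Per the labels' protocols, total RNA was prepared with a Bio-Rad kit and libraries with a SMARTER mRNA kit. The raw count values were deposited by the authors, 1 whole number per Ensembl gene and library for 28684 genes. STAR 2.6.1a, kallisto 0.44.0 and Bowtie2 are named, per the submitters' processing notes, with the mouse build GRCm38 (mm10). How reads were counted, on which annotation and with which strand setting is not stated. The authors also deposited a normalised signal sheet, which equals the counts times 1 constant per library, and their log2 ratios with q-values, used here for member counts alone.

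Counts were tested with edgeR 4.0.16 in R 4.3.3 (filterByExpr, TMM, quasi-likelihood F test), 9 libraries per tissue or all 18 for comparisons between tissues, with Benjamini-Hochberg adjustment over all genes tested. A call is an adjusted p under 0.05, and all 39 members passed the filter. CPM were scaled within a tissue unless stated, and over all 18 libraries for marker sums and levels per kilobase. SE was taken from the log2 fold change and its F statistic. The fits were tested on simulated counts, drawn for each gene on its own. No simulated library had a shift shared by many genes, so that run does not cover the libraries that stood apart here. Alternatives were DESeq2 1.42.0, limma-voom (limma 3.58.1), DESeq2 size factors, no filter, ribosomal-read genes left out, a replicate block, all 18 libraries in 1 fit and each library left out. Positions are from GENCODE vM21 and promoters from RefSeq. Members, gene lists and markers were chosen with earlier results of these data known. All 39 members are counted in each comparison, though not every uncalled member has its value or range printed. Members called between stages without overlap are given by library. Of those called between the tissues with no disease, some are given by log2 fold change alone. Of each pathway list a fixed set and up to 4 further called genes are named. Of that fixed set, 1 gene is not reported here.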

Additional observations from a re-analysis of the deposited data

Results flagged for a closer look

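The change at peak disease differed between sciatic nerve and DRG for 4 members, by the test of the difference itself (edgeR, adjusted p under 0.05). The difference of log2 fold changes, nerve minus DRG, was -2.07 for Gbp4, -1.69 for Gbp5, -2.45 for Gbp6 and -2.03 for Ifi47. These 4 of 39 stand beside 9.47% of all genes with a negative difference, about the same share. None of the 4 passed without DRG peak replicate 2, where the differences were -1.29, -0.94, -1.22 and -1.40, nor without nerve no disease replicate 3, without DRG no disease replicate 3 or in limma-voom.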

How the results depend on the processing

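No called value changed direction under any alternative run. Most member counts in this section are given without the share of all genes called in the same fit. A higher or lower count here thus cannot be read as a trait of the members. DESeq2 called more members than edgeR: 4 lower in peak nerve, 4 higher in recovery nerve against no disease and 12 against peak, 4 higher in peak DRG, 11 in recovery DRG against no disease and 1 against peak. limma-voom called 0 higher in peak nerve, 0 in peak DRG and 0 in recovery DRG, and 0 tissue differences at peak. It called 1 lower in peak nerve, 1 higher in recovery nerve against no disease and 8 higher against peak. Between the tissues with no disease it called 18 higher in nerve and 2 lower. With no filter on low counts there were 3 lower in peak nerve, and in DRG 8 higher at recovery against no disease and 1 against peak. All 18 libraries in 1 fit gave 0 higher in peak nerve. With the replicate block there were 2 lower in peak nerve, 2 higher in recovery nerve and 1 higher in recovery DRG. Same-numbered libraries correlated over 0.1 in 3 of 9 nerve pairs and 2 of 9 DRG pairs. Libraries of different number did so in 1 of 18 nerve pairs and 4 of 18 DRG pairs. These counts do not settle whether the numbers pair samples, and the main fits used no block. Leaving out 1 library gave 0 to 1 higher and 1 to 7 lower in peak nerve, 1 to 7 higher and 0 to 1 lower in recovery against peak nerve, 0 to 3 higher in peak DRG, 0 to 20 in recovery DRG against no disease, 0 to 5 against peak, and 0 to 6 tissue differences at peak. All genes called higher moved as well in these fits, to between 2 and 1758 in recovery DRG against no disease and between 0 and 579 against peak. The cause was not tested. For the called genes taken 1 by 1, the call was kept in 399 fits that left out a library and lost in 165, and it was kept in 497 and lost in 34 fits under the other alternatives. These tallies pool members with pathway genes, and comparisons of stages with those of tissues. They thus do not give the share of member calls between stages that was kept. Leaving out a library cost Tgtp1 its call in 6 fits of recovery against peak nerve, and Isg15 in 5 of recovery DRG against no disease. Irf1 in nerve and Ifi27l2a in peak nerve lost none. With no disease, no member lost its call between the tissues in more than 3 such fits. With 3 libraries a group and the members' spread, a member that was not called is not shown to be unchanged.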
